A study of Mus musculus with 18 samples.

Results

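Collagens are secreted or membrane-bound proteins built from alpha chains, and the mouse genome names each chain gene by its collagen type and chain number. The genes described here were all those whose array symbol has that form (Col, a number, a, a number), with 1 probe set per gene, the one with the highest mean over all arrays. This gave 44 genes, represented by 47 probe sets, of the 22180 genes on the array. The rule used no difference between groups, but the family was chosen with earlier results of these data known. The arrays measured total RNA of cultured mouse neurospheres, free-floating balls of neural stem and progenitor cells. Cultures of 3 genotypes were used: wild type, knockout of Pcdh19, and a mosaic of wild type and knockout cells whose shares the labels do not give. RNA was taken from each at day 0, as neurospheres, and after differentiation to day 4. Each of the 6 groups had 3 arrays, and all 18 samples are labelled female. Pcdh19 encodes protocadherin 19, a cell adhesion protein. The knockout allele, the age of the animals and how many animals or cultures stand behind a group are not stated in the labels. The design text calls the replicates technical, so every p-value below measures only the spread between these samples.

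Collagen alpha chains fold in threes into a rod-like helix in the endoplasmic reticulum, which needs hydroxylated prolines and lysines and dedicated chaperones. Fibrillar collagens (types I, II, III, V, XI, XXIV and XXVII) form the fibrils of connective tissue, type IV forms the network of basement membranes, and fibril-associated collagens such as types IX, XII and XIV decorate fibril surfaces. In the brain, collagens are known mainly from blood vessel walls, the meninges and the basement membrane at the brain surface, and neural stem cells contact such membranes in their niche.

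The regions just before the annotated starts of 3 of the chain genes described below are shown because these genes changed over differentiation (Col9a1, Col4a5, Col4a6) and because the last pair is arranged head to head. All are RefSeq sequence of the GRCm38.p6 build, written 5′ to 3′ on the gene's own strand, and capitals mark a CCAAT box. Col9a1 has a pair of annotated starts, each with its own window, at chr1:24177360-24177588 and chr1:24194953-24195202 on the plus strand. The Col4a5 window is chrX:141475169-141475369 on the plus strand, and the Col4a6 window is chrX:141474096-141474326 on the minus strand.
Col9a1 first start: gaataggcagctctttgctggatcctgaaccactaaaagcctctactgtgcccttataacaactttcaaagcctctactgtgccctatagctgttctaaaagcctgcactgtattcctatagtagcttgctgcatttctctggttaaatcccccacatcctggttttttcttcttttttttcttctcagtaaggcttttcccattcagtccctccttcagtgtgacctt
Col9a1 second start: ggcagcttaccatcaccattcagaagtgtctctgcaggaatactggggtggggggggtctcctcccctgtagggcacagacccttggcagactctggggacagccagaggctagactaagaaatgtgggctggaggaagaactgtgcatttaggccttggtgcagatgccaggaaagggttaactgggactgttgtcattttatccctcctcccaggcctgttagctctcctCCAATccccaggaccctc
Col4a5: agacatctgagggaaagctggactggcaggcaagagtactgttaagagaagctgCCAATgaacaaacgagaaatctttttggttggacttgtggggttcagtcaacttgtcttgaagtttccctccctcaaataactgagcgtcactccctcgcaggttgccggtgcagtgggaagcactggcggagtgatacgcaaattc
Col4a6: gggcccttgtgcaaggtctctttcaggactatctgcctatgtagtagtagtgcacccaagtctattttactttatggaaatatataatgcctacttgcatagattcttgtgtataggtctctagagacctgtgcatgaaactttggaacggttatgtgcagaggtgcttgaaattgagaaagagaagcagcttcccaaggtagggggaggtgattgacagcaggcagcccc

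The annotated starts of Col4a5 and Col4a6 lie 1343 bases apart on chromosome X on opposite strands. The starts of Col9a1 lie 17593 bases apart on chromosome 1, and its array value does not tell them apart. The CCAAT box stood once in the later Col9a1 window and once in the Col4a5 window. In the whole windows of 250 bases before a start, Col4a5 and Col4a6 each held 1 GC box (GGGCGG), which lies in or reaches into the bases nearest the start that are not printed (49 for Col4a5 and 19 for Col4a6). Windows were given for 35 of the 44 collagen genes, 38 windows in all. Searched on both strands, a GC box stood in 57.9% of these collagen windows and in 32.7% of all 32851 windows. The CCAAT box (CCAAT) stood in 34.2% of collagen windows against 33.8% of all, the TATA box (TATAAA) in 13.2% against 12.4%, and the AP-1 site (TGANTCA) in 2.63% against 6.75%. A match is a description of the sequence.

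The deposited values are normalized log2 signals, and precision was limited by the 3 arrays of a group. Array medians lay between 4.85 and 4.99 and array 75th percentiles between 6.59 and 6.73. The targeted gene Pcdh19 separated wild type from knockout arrays, at 6.66 to 6.98 on all wild type arrays and at 5.39 to 5.86 on all knockout arrays. Mosaic arrays ranged from 5.65 to 6.32 at day 0 and gave 6.54, 7.09 and 5.52 on the arrays labelled mosaic at day 4, so that replicate 2 lay above every wild type array and replicate 3 just under the lowest knockout array of that day. Without replicate 2 or 3 of that group, collagen genes in mosaic cultures at day 4 against day 0 numbered 3 higher and 5 or 6 lower, against 3 and 6 with all arrays, and no collagen gene was called between genotypes. Of 8 neural stem cell markers, 4 were called lower at day 4 in each genotype and the others were not called, except Msi1, higher in knockout cultures (0.30, adjusted p 0.0464). Of 6 neuronal markers 5 were higher, and all 5 oligodendrocyte markers tested were higher, in each genotype. Astrocyte markers were called in both directions, among them Gfap lower and S100b, Aqp4 and Slc1a2 higher in each genotype. The stem cell marker Nes fell, with log2 differences of -1.58, -1.66 and -1.63 for wild type, knockout and mosaic, and the oligodendrocyte gene Mobp rose by 4.97, 4.62 and 5.21 in the same order (limma, adjusted p at most 2.96e-06).

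The collagen genes gave modest signals. The mean log2 signal of a collagen gene over the 18 arrays ran from 4.00 (Col6a5) to 6.95 (Col9a2), with a median of 5.35, against a median of 6.004 over the 19016 genes tested. Of the 44 genes, 25 lay above the array median on all 18 arrays, none lay above the 75th percentile on all of them, and 7 did so on at least 1 array. The 11 fibrillar chain genes had means of 5.02 to 6.68, the 6 type IV genes 4.56 to 6.28, the 6 type VI genes 4.00 to 5.68 and the 9 fibril-associated genes 4.21 to 6.95. The 4 short-chain and anchoring genes lay at 4.14 to 5.56 and the 4 transmembrane genes at 5.16 to 6.17. The files carry no detection call, so how much of a dim signal is background is unknown, and a signal does not rank one gene's RNA against another's because probe sets differ.

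**Figure D1:**
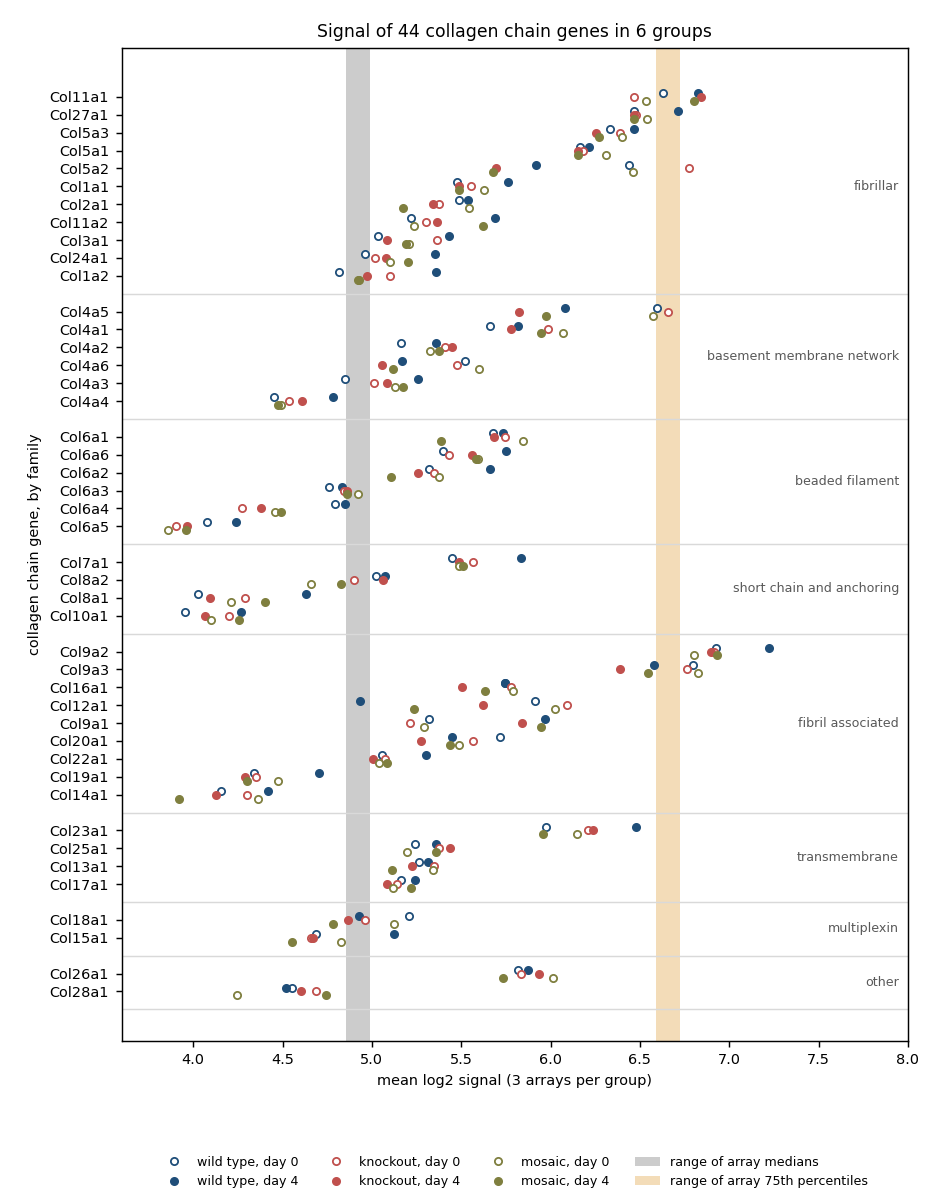
Mean log2 signal of the 44 collagen chain genes (rows, by family) in each of the 6 groups of 3 arrays, with shaded ranges for the array medians (4.85 to 4.99) and 75th percentiles (6.59 to 6.73). Group means of most genes lie close together, and no collagen gene lies above the 75th percentile on all arrays.

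Over differentiation, some collagen genes were called in the same direction in every culture. Col5a2, Col12a1 and Col4a5 fell from day 0 to day 4 in wild type, knockout and mosaic cultures, and Col9a1 rose in all 3. Lower calls in all 3 genotypes were thus made for 3 of 44 collagen genes, against 8.93% of all tested genes, and higher calls in all 3 for 1 of 44, against 8.86%. Another 20 collagen genes were called in no genotype, where 56.2% of tested genes were called in none. No collagen gene was called higher in one genotype and lower in another.

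Col5a2 encodes the alpha 2 chain of type V collagen, which joins type I collagen in fibrils and limits their diameter. Its log2 signal was 6.50, 6.42 and 6.39 on the wild type arrays of day 0 and 5.87, 5.84 and 6.05 on those of day 4. In knockout cultures it was 6.60, 7.08 and 6.65 at day 0 and 5.69, 5.62 and 5.78 at day 4, and in mosaic cultures 6.36, 6.56 and 6.46 at day 0 and 5.67, 5.62 and 5.74 at day 4. Every day 4 array lay below every day 0 array, over all genotypes. The gene fell, with log2 differences of -0.52 ± 0.11 (SE, n = 3 arrays per group) for wild type, -1.08 ± 0.11 for knockout and -0.78 ± 0.11 for mosaic (limma, adjusted p 0.00181, 1.58e-06 and 4.3e-05), and the knockout difference is 2.11-fold. In bulk RNA, fewer cells of a type and less RNA per cell cannot be told apart, here and for every gene below. The change in knockout minus that in wild type was -0.56 ± 0.16, which did not pass the threshold (limma, adjusted p 0.320).

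The other chains of type V collagen did not pass the test. Col5a1, whose chain pairs with that of Col5a2 in the common form of type V, gave 6.09, 6.19 and 6.21 in wild type at day 0 and 6.20, 6.19 and 6.24 at day 4. Its knockout values were 6.16, 6.11 and 6.27 at day 0 and 5.87, 6.36 and 6.23 at day 4, and its mosaic values 6.34, 6.27 and 6.32 at day 0 and 6.30, 5.96 and 6.19 at day 4. The days overlapped in each genotype, with differences of 0.05, -0.02 and -0.16. A dimmer probe set of Col5a1 that was not used gave 0.49, 0.06 and 0.18, so the probe sets of this gene disagree in wild type. Col5a3, the chain of a less common form of type V, lay between 5.94 and 6.57 on all arrays, with differences of 0.13, -0.13 and -0.13. Across the 18 arrays, which share the groups, Pearson's r between Col5a1 and Col5a2 was 0.13.

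Col12a1, which encodes the fibril-associated type XII collagen, had the largest fall of any collagen gene in wild type cultures. It gave 5.82, 5.75 and 6.18 on the day 0 arrays and 4.87, 4.82 and 5.10 on the day 4 arrays, with no overlap. In knockout cultures the values were 6.02, 6.16 and 6.10 at day 0 and 5.67, 5.65 and 5.56 at day 4. In mosaic cultures they were 5.88, 6.07 and 6.12 at day 0 and 5.48, 5.13 and 5.09 at day 4. The day 0 arrays lay above the day 4 arrays in all 3 genotypes, and at day 4 every knockout array lay above every wild type array. The log2 differences were -0.98 ± 0.12, -0.47 ± 0.12 and -0.79 ± 0.12 (SE) in wild type, knockout and mosaic cultures (limma, adjusted p 1.42e-05, 0.00899 and 0.000129), the first being 1.98-fold.

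Col4a5 and Col4a6, the head-to-head pair shown above, encode basement membrane chains that assemble together in one form of type IV collagen. Col4a5 gave 6.43, 6.75 and 6.60 in wild type at day 0 and 6.18, 5.99 and 6.07 at day 4. In knockout cultures it gave 6.58, 6.69 and 6.71 and then 5.74, 5.89 and 5.85, and in mosaic cultures 6.12, 6.73 and 6.87 and then 5.95, 6.05 and 5.92. The days did not overlap in any genotype, although 1 mosaic day 0 array lay close to the day 4 arrays. Col4a5 fell in all 3, by log2 differences of -0.52 ± 0.14, -0.83 ± 0.14 and -0.60 ± 0.14 (limma, adjusted p 0.0111, 0.000323 and 0.00474). The wild type call was lost without the array of wild type day 0 replicate 2 (adjusted p 0.054), and the mosaic call was lost when only the groups compared were fitted (adjusted p 0.0531).

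Col4a6 gave 5.26, 5.54 and 5.76 in wild type at day 0 and 5.07, 5.20 and 5.25 at day 4. Its knockout values were 5.14, 5.62 and 5.66 and then 4.98, 5.04 and 5.16, and its mosaic values 5.36, 5.79 and 5.65 and then 5.23, 5.16 and 4.96. It fell by 0.42 ± 0.15 in knockout, where 1 day 0 array overlapped day 4, and by 0.48 ± 0.15 in mosaic cultures (limma, adjusted p 0.0485 and 0.0237). The wild type difference was -0.35 ± 0.15 (adjusted p 0.0811). The knockout call was lost under 9 of 14 alternative settings and the mosaic call under 3 of 14. Across 18 arrays, r between Col4a5 and Col4a6 was 0.84, and 0.55 for deviations from the group means. The pair Col4a1 and Col4a2, which encode the main type IV chains, had an r of 0.66 over all arrays and 0.82 within groups, and neither gene was called in any genotype (differences of -0.21 to 0.20). Col4a3 and Col4a4, the remaining type IV pair, had an r of 0.26 over all arrays and -0.10 within groups.

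Col9a1 was the one collagen gene higher at day 4 in every genotype. It encodes a chain of type IX collagen, a fibril-associated collagen best known from cartilage and the vitreous of the eye. Its wild type values were 5.17, 5.25 and 5.53 at day 0 and 6.02, 5.87 and 6.03 at day 4. Knockout arrays gave 4.94, 5.25 and 5.46 and then 5.56, 6.01 and 5.94, and mosaic arrays 5.43, 5.21 and 5.24 and then 5.95, 5.94 and 5.95. All 9 day 4 values lay above all 9 day 0 values. The gene rose by 0.65, 0.63 and 0.66, each ± 0.14 (limma, adjusted p 0.0015, 0.00222 and 0.00153).

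The other type IX chains, which join that of Col9a1 in one trimer, were not called higher in every genotype. Col9a3 gave 6.84, 6.61 and 6.84 in knockout cultures at day 0 and 6.46, 6.33 and 6.37 at day 4, and fell by 0.37 ± 0.12 (limma, adjusted p 0.0258; lost under 5 of 14 alternatives), while its differences were -0.22 in wild type and -0.28 in mosaic cultures (adjusted p 0.163 and 0.0932). Col9a2 gave 6.99, 6.88 and 6.91 in wild type at day 0 and 7.46, 7.06 and 7.15 at day 4. It rose by 0.30 ± 0.11 in wild type (adjusted p 0.0477), a call lost under 8 of 14 alternatives, with differences of -0.02 and 0.13 in knockout and mosaic cultures. Across the 18 arrays, r was -0.62 between Col9a1 and Col9a3 and 0.45 between Col9a1 and Col9a2, and 0.05 and 0.16 within groups.

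Type XI chains, fibrillar partners of type IX in cartilage, had scattered higher calls. Col11a1 gave 6.51, 6.50 and 6.39 in knockout cultures at day 0 and 6.90, 6.94 and 6.68 at day 4, a rise of 0.37 ± 0.11 (limma, adjusted p 0.0214). That call was lost under 3 of 14 alternatives, and the wild type and mosaic differences of Col11a1 were 0.20 and 0.27. Col11a2 gave 5.28, 5.06 and 5.33 in wild type at day 0 and 5.70, 5.57 and 5.79 at day 4, and rose by 0.47 ± 0.10. Its mosaic values were 5.26, 5.13 and 5.32 and then 5.75, 5.52 and 5.59, a rise of 0.38 ± 0.10, and its knockout difference was 0.06 (limma, adjusted p 0.00185, 0.00823 and 0.722). Neither the wild type nor the mosaic days overlapped for Col11a2.

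**Figure D2:**
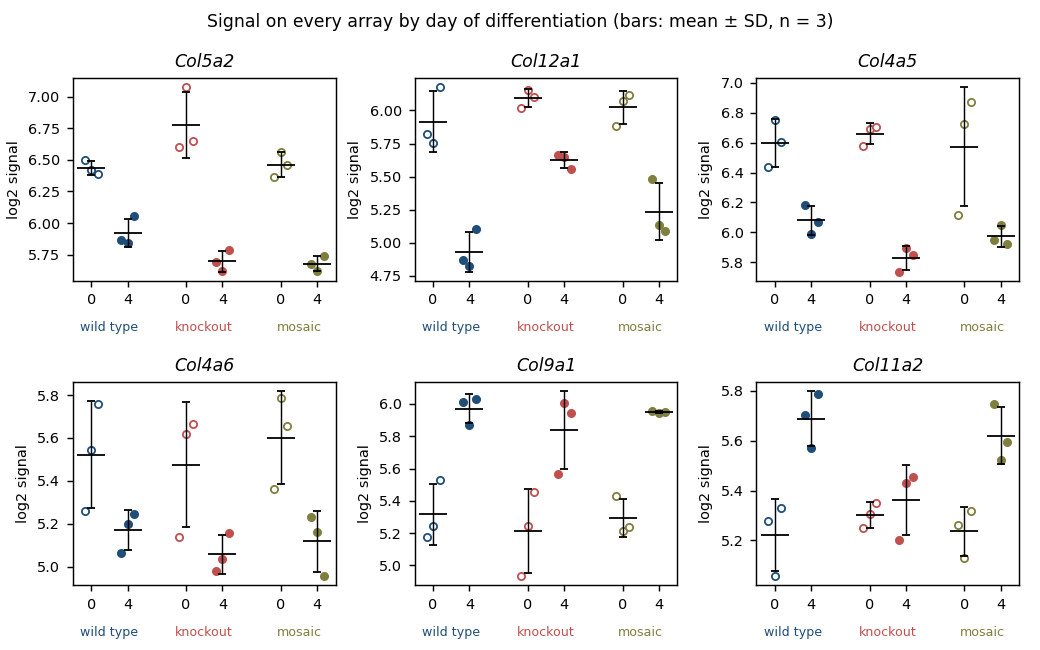
Log2 signal on every array for Col5a2, Col12a1, Col4a5, Col4a6, Col9a1 and Col11a2 at day 0 and day 4 in wild type, knockout and mosaic cultures, with bars for the mean and SD of 3 arrays. Col5a2, Col12a1 and Col4a5 are lower and Col9a1 is higher at day 4 in each genotype, with no overlap between the days.

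Over the whole family, higher calls outnumbered lower ones in wild type cultures. Lower calls outnumbered higher ones in knockout and mosaic cultures, but as a share of the family they lay near that of all tested genes. In wild type, 14 collagen genes were called higher at day 4 and 3 lower, where 17.2% of tested genes were higher and 16.3% lower. In knockout cultures 2 were higher and 6 lower, where 15% of tested genes were higher and 12.4% lower, and in mosaic cultures 3 were higher and 6 lower, where 14.4% were higher and 11.9% lower. Differences above 0 were seen in 35, 16 and 18 of the 44 genes, with medians of 0.18, -0.06 and -0.06, against medians over all tested genes of 0.09, 0.02 and 0.02. The number higher in wild type depended on single arrays: it was 8, 7 and 9 without day 0 replicate 1, 2 or 3 and 7 without day 4 replicate 1. In knockout cultures the 6 lower calls became 3 with a common array median and 3 to 5 without single arrays (3 without day 4 replicate 3), and the 2 higher calls became 1 without day 0 replicate 3 or day 4 replicate 1 or 2. Scaling mattered in wild type as well, since quantile normalization gave 18 higher and 3 lower and a common array median 11 higher and 4 lower. Over all genes these scalings gave 4091 higher and 2556 lower, and 2651 higher and 3285 lower, in wild type, against 3280 and 3106 as deposited.

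After Col9a1, the wild type rises were led by Col8a1, a short-chain collagen of vessel walls and the cornea, and by Col1a2, the alpha 2 chain of type I, the main collagen of connective tissue. Col8a1 gave 4.24, 3.67 and 4.18 at day 0 and 4.67, 4.73 and 4.50 at day 4, and rose by 0.60 ± 0.14 (limma, adjusted p 0.00325). Col1a2 gave 4.92, 4.66 and 4.87 at day 0 and 5.44, 5.41 and 5.22 at day 4, and rose by 0.54 ± 0.10 (adjusted p 0.000592). Neither gene's days overlapped in wild type. In knockout and mosaic cultures the differences were -0.19 and 0.19 for Col8a1 and -0.13 and 0.01 for Col1a2, none of them called. A dimmer probe set of Col1a2 that was not used (mean signal 3.12) gave a smaller wild type difference, 0.21, with -0.17 in knockout and -0.26 in mosaic cultures. Type I's other chain gene, Col1a1, had differences of 0.29, -0.07 and -0.14, also uncalled, and Col3a1, the fibrillar type III chain found with type I, had 0.40, -0.28 and -0.02.

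The remaining wild type rises were smaller. Col23a1, a transmembrane collagen, rose by 0.50, Col15a1, a multiplexin of basement membrane zones, by 0.44, and the type IV genes Col4a3 and Col4a4 by 0.41 and 0.33. Col24a1, a fibrillar chain, rose by 0.39, Col7a1, which forms anchoring fibrils under epithelia, by 0.38, Col19a1 by 0.36, Col6a6 by 0.35 and Col10a1, known from growth-plate cartilage, by 0.31. Several of these calls were not stable: Col10a1 lost its call under 10 of 13 alternatives, Col19a1 under 6 of 13, Col4a4 under 4 of 13, Col6a6, Col4a3 and Col23a1 under 5 of 14 each, and Col15a1 under 3 of 14. With Col9a2 and Col11a2 these complete the 14. Among families, the type VI genes, which form beaded filaments, held 1 call among 6 genes in wild type and none in the other cultures. Of the 4 short-chain and anchoring genes, 3 were higher in wild type and none was called in knockout or mosaic cultures.

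Some calls were made in a single mutant or mosaic comparison. Col20a1, a fibril-associated chain, fell by 0.29 ± 0.10 in knockout cultures (limma, adjusted p 0.0425), a call that 10 of 14 alternatives lost, and its wild type difference was -0.27 (adjusted p 0.0542). In mosaic cultures Col14a1, which encodes the fibril-associated type XIV collagen, gave 4.13, 4.48 and 4.49 at day 0 and 4.09, 3.78 and 3.88 at day 4, and fell by 0.44 ± 0.11. Col26a1 fell there by 0.28 ± 0.09, and Col28a1 rose from 4.10, 4.36 and 4.29 to 4.54, 4.91 and 4.78, by 0.50 ± 0.11 (limma, adjusted p 0.00584, 0.0289 and 0.00219). The Col26a1 call was lost under 7 of 14 alternatives, both scalings among them. The days did not overlap for Col14a1 or Col28a1 in mosaic cultures. The wild type differences of these 3 genes were 0.26, 0.06 and -0.03, none called.

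**Figure D3:**
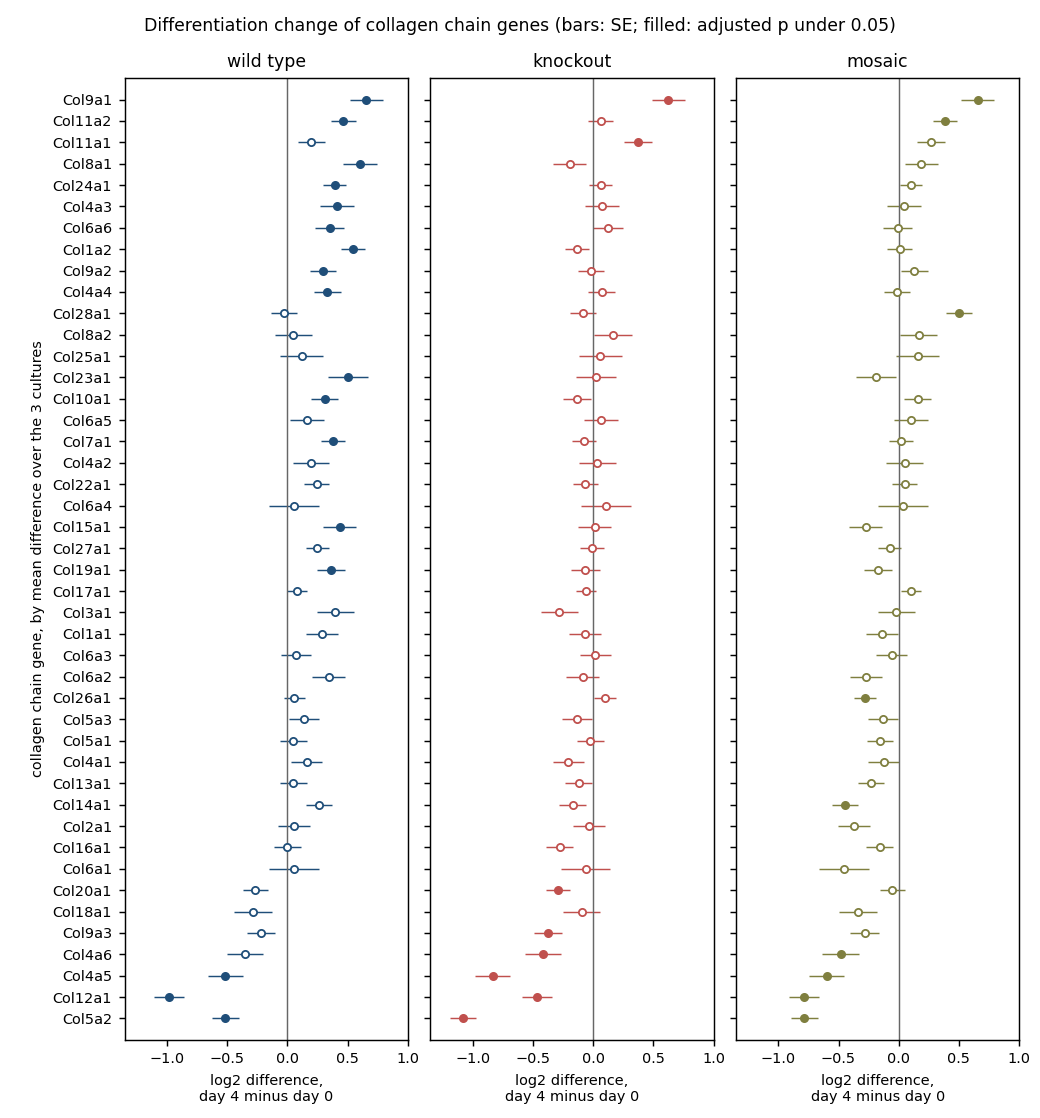
Log2 difference of day 4 minus day 0 for the 44 collagen chain genes (rows) in wild type, knockout and mosaic cultures, with bars for the SE and filled points for an adjusted p under 0.05. In wild type 14 genes are filled above 0 and 3 below, in knockout 2 and 6, and in mosaic 3 and 6.

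In wild type the difference between days moved with signal level over all genes, and the collagen genes lay mostly at the dimmer levels. When the 19016 tested genes were divided by mean signal into 4 bands of 4754 genes, the wild type medians were 0.18, 0.16, -0.03 and -0.06 from the dimmest to the brightest band. In the dimmest band 11.9% of genes were called higher and 1.96% lower, and in the next 18.7% and 8.67%. In knockout and mosaic cultures the band medians lay between -0.00 and 0.04. Of the 44 collagen genes, 8 lay in the dimmest band, 27 in the next, 9 in the next and none in the brightest, with wild type medians of 0.29, 0.16 and 0.14 and 4, 8 and 2 higher calls. The collagen medians lay above the band medians in the dimmest and the next but one band, and at about the band median in the one between, which held most of the genes. The part of signal level in the wild type rises was not tested.

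**Figure D4:**
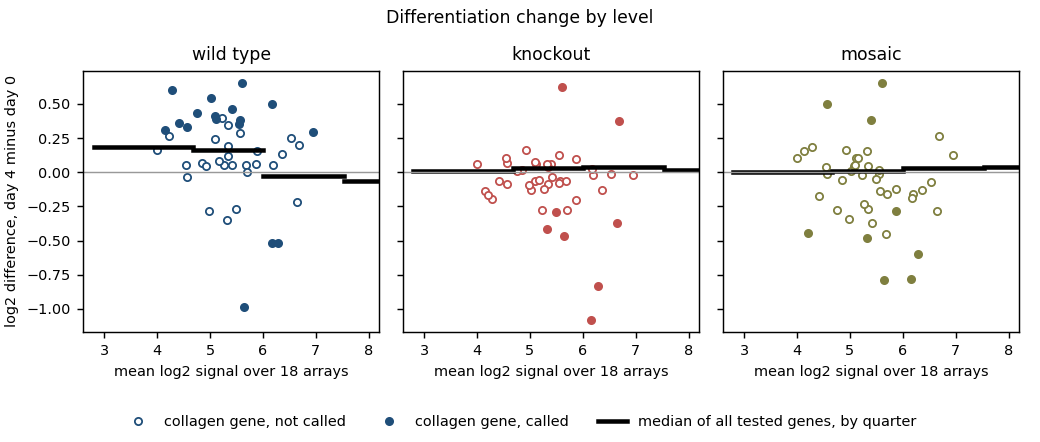
Log2 difference of day 4 minus day 0 against the mean log2 signal over 18 arrays, with 1 point per collagen chain gene (filled where called) and a black line for the median of all tested genes in each of 4 bands by signal. The black lines of the dimmer bands lie at 0.18 and 0.16 in wild type and near 0 in knockout and mosaic cultures.

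Markers of fibroblasts, vessel cells and microglia were read beside these results. Of the 8 pericyte and smooth muscle genes tested, 1 was higher in wild type and 0 were lower, with a list median of 0.24, and the lists of endothelial and microglial genes each had 1 higher call (of 8 and of 7 genes) and a median of 0.16. In knockout and mosaic cultures the medians of these 3 lists lay between -0.07 and 0.05, with no higher calls. The median of all tested genes was 0.09 for wild type and 0.02 for each of the other cultures. Most genes of these lists had mean signals below 6.004, in the dimmer bands described above. The medians of all genes in those bands were 0.18 and 0.16 for wild type, and -0.00 to 0.03 for the other cultures. The part of signal level in the list medians was not tested. Lower calls in knockout and mosaic cultures were Acta2, a smooth muscle actin, in both (-0.90 and -1.15), Notch3 in mosaic (-0.42) and P2ry12, a microglial receptor, in knockout cultures (-0.39; limma, adjusted p 0.00504, 0.000777, 0.0124 and 0.0269). In wild type these 3 genes gave -0.50, -0.23 and -0.17, uncalled but in the same direction (limma, adjusted p 0.087, 0.131 and 0.30). Over all tested genes, 17.2% were higher and 16.3% lower in wild type, 15% and 12.4% in knockout, and 14.4% and 11.9% in mosaic cultures. These shares stand beside the next list too, and counts in lists this short were not read as a result. Of 11 fibroblast and meningeal genes tested, 3 were higher and 1 lower in wild type, 1 and 1 in knockout, and 2 and 1 in mosaic cultures. The rises in this list were led by Pdgfrb, a growth factor receptor also found on pericytes, which rose by 2.06, 2.29 and 2.11, and Fbln1, a matrix protein, fell (-0.61, -1.04 and -0.76; limma, adjusted p at most 0.000151). The summed linear signal of the 12 fibroblast and meningeal genes was 456 to 482 at day 0 and 545 to 582 at day 4 in wild type, 487 to 529 and 547 to 558 in knockout, and 472 to 505.0 and 540 to 557 in mosaic cultures. Without Pdgfrb, the other 11 genes summed to 417 to 440 and then 371 to 403 in wild type, 432 to 484 and then 350 to 376 in knockout, and 438 to 458 and then 352 to 380 in mosaic cultures, so the higher sums at day 4 came from Pdgfrb. No marker was listed at 0. Mean log2 signals in the fibroblast and meningeal list ran from 2.91 (Lum) to 6.63 (Prrx1). Lum and Dcn (3.74) lay below and near the 25th percentile of the arrays (3.57 to 3.67). Foxc1 (5.55), Pdgfrb (6.45), Fbln1 (6.49) and Prrx1 lay above the array medians (4.85 to 4.99). Genes were named here after their values were seen. The summed endothelial signal was 209 to 236 at day 0 and 240 to 263 at day 4 in wild type, and 206 to 244 on all knockout and mosaic arrays. The part of these cell types in the collagen results was not tested.

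Between genotypes, no collagen gene passed the threshold at either day, and none passed in the tests of whether the change over differentiation differed between genotypes. None of the 19016 genes was called in any of these 9 comparisons (0% in each direction, limma). The targeted gene Pcdh19 was itself not called. Its means were 6.78 in wild type and 5.51 in knockout cultures at day 0, and 6.90 and 5.70 at day 4. Its SD was largest among the mosaic day 4 arrays (0.793), which enter the shared estimate of spread. The lack of calls therefore does not show that the genotypes are alike. At an unadjusted p under 0.05, knockout against wild type at day 0 gave 5 collagen genes higher and 1 lower (3.61% of tested genes in either direction), mosaic against wild type 2 and 3 (4.3%), and mosaic against knockout 0 and 2 (4.24%). At day 4 the counts were 1 higher and 15 lower in knockout against wild type (12.7% of tested genes), 1 and 12 in mosaic against wild type (15.9%), and 2 and 2 in mosaic against knockout (6.07%). For the change over differentiation they were 1 and 12 in knockout against wild type (9.51%), 1 and 13 in mosaic against wild type (12.4%), and 2 and 1 in mosaic against knockout (4.29%). Knockout and mosaic cultures were compared with the same wild type arrays, so these counts share their control. The percentages count both directions together, so they are no share for the lower counts alone. At the dimmer levels, where most collagen genes lay, the median of all genes rose over differentiation in wild type (0.18 and 0.16). The part of signal level in the lower counts was not tested.

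Col12a1 had the lowest adjusted p of the collagen genes in knockout against wild type at day 4. Its means were 4.93 ± 0.15 (SD, n = 3) in wild type, 5.23 ± 0.22 in mosaic and 5.62 ± 0.06 in knockout cultures, and knockout exceeded wild type by 0.69 ± 0.12 (SE; limma, adjusted p 0.154). Mosaic cultures lay between, at 0.30 against wild type and -0.39 against knockout (adjusted p 0.267 and 0.762), and their arrays overlapped those of wild type. The change over differentiation in Col12a1 in knockout minus that in wild type was 0.52 ± 0.18 (adjusted p 0.416).

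Most of the other low p-values belonged to genes with lower signals than in wild type at day 4, none of them called. Col1a2 lay at -0.39 in knockout and -0.43 in mosaic against wild type (adjusted p 0.211 and 0.129), and Col8a1 at -0.53 in knockout (adjusted p 0.211). In mosaic against wild type, Col15a1 lay at -0.57, Col6a2 at -0.55, Col23a1 at -0.52 and Col14a1 at -0.50 (adjusted p 0.129, 0.129, 0.184 and 0.129). Without the array of mosaic day 4 replicate 1, Col14a1, Col15a1, Col1a2 and Col23a1 were called lower in mosaic than in wild type cultures at day 4, at -0.58, -0.67, -0.48 and -0.71 (limma, adjusted p 0.0367, 0.0425, 0.047 and 0.0436), among 138 higher and 124 lower genes. In the test of the difference in change, Col1a2 gave -0.67 ± 0.14 and Col8a1 -0.80 ± 0.20 for knockout against wild type (adjusted p 0.233 and 0.272), and Col14a1 gave -0.71 ± 0.16 for mosaic against wild type (adjusted p 0.256). A change called in wild type alone is therefore not shown to differ between genotypes.

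Among the genes that process collagen, lower calls outnumbered higher ones in each genotype. Of 26 tested genes for collagen folding, modification, secretion and cross-linking, 14 were lower and 1 higher in wild type, 13 and 2 in knockout, and 12 and 1 in mosaic cultures, with medians of -0.36, -0.31 and -0.36. Over all tested genes, 16.3%, 12.4% and 11.9% were lower and 17.2%, 15% and 14.4% higher in the same order. Most of these collagen-processing genes had mean signals above 6.004, in the brighter bands described above. In those bands 25.4% and 29.3% of all genes were lower in wild type, 18.6% and 20.7% in knockout, and 17.6% and 19% in mosaic cultures. The part of signal level in these counts, and in those of the lists below, was not tested. Plod2, a lysyl hydroxylase whose product allows stable cross-links, fell, with log2 differences of -1.37, -1.12 and -1.39 in the order wild type, knockout, mosaic (limma, adjusted p 1.27e-06, 1.04e-05 and 1.03e-06). Serpinh1, the collagen chaperone HSP47, fell as well, at -1.24, -1.30 and -1.33 (adjusted p at most 2.25e-06). Adamts3, which cleaves procollagen ends, fell in wild type (-0.98) and mosaic cultures (-0.80), and gave -0.33 in knockout cultures (adjusted p 0.00259, 0.0117 and 0.324). P4ha3, a prolyl hydroxylase subunit, rose by 0.88, 1.26 and 1.12 (adjusted p at most 0.00672).

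Among 10 tested collagen receptors, 4 were lower in each genotype, where 16.3%, 12.4% and 11.9% of tested genes were. Ddr2, a receptor tyrosine kinase for fibrillar collagens, fell (-2.23, -1.89 and -2.28), and the integrin subunit genes Itga2, Itga1 and Itgb1, which make up collagen-binding integrins, fell too, at -1.68, -1.57 and -1.69 for Itga2, -1.11, -0.89 and -1.19 for Itga1, and -0.68, -0.56 and -0.46 for Itgb1 (limma, adjusted p at most 0.000496). The 1 higher call, in wild type, was Itga11, another collagen-binding integrin chain, at 0.35 (adjusted p 0.0252), named after its value was seen. Among 9 tested genes of collagen breakdown and its inhibitors, 3 were higher and 3 lower in wild type, 2 and 3 in knockout, and 3 and 4 in mosaic cultures, where 17.2% of tested genes were higher and 16.3% lower in wild type, 15% and 12.4% in knockout, and 14.4% and 11.9% in mosaic cultures. The metalloprotease inhibitor genes split: Timp1 (-1.15, -1.43 and -1.27) and Timp3 (-1.05, -0.98 and -0.92) fell, while Timp2 rose by 0.85, 0.99 and 0.86 and Timp4 by 0.57, 0.63 and 0.47 (adjusted p at most 0.00246). Timp4 was named after its values were seen, as the last of the 4 inhibitor genes listed. Mmp2, a gelatin-degrading protease, fell by 0.81 in mosaic cultures (adjusted p 0.00396) and gave -0.36 and -0.42 in wild type and knockout cultures. No gene of these lists was called between genotypes.

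**Figure D5:**
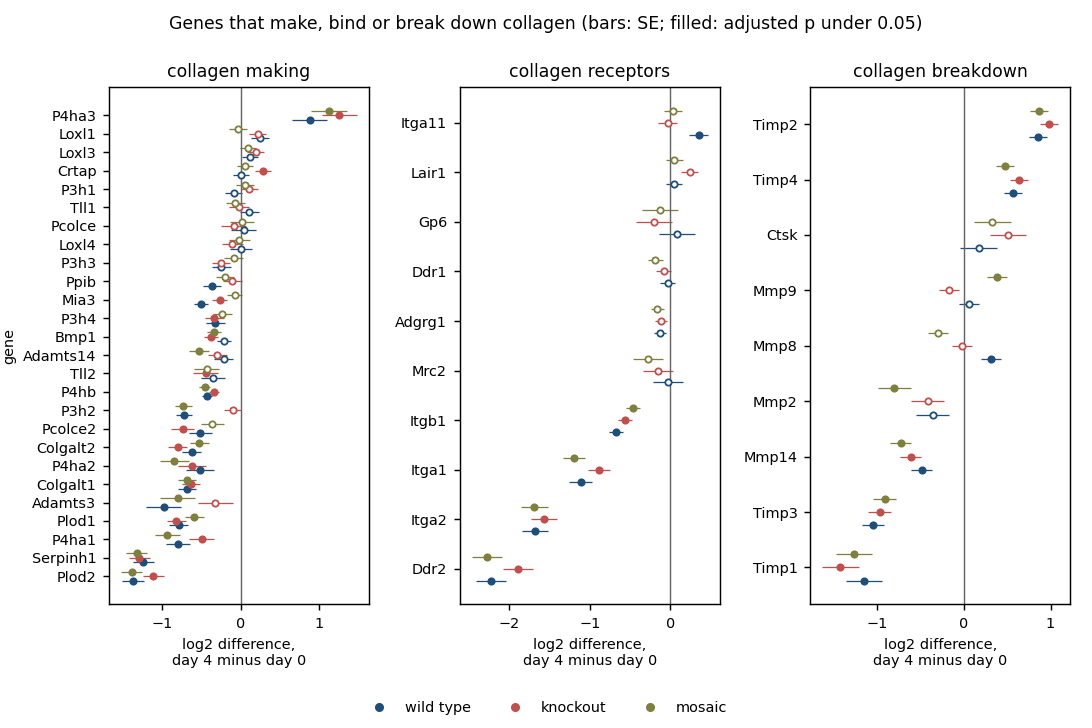
Log2 difference of day 4 minus day 0 for genes that make, bind or break down collagen, by genotype, with bars for the SE and filled points for an adjusted p under 0.05. Ddr2, Itga2, Plod2 and Serpinh1 lie below -1 in all 3 genotypes, and the points of some genes, such as Adamts3 (-0.98, -0.33 and -0.80), lie apart between genotypes.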

How the data were processed

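Total RNA of 18 neurosphere samples was extracted with Trizol and silica columns and labelled with biotin, per the labels. The values are log2 expression signals per probe set, deposited by the authors in 1 table, and their log2 scale was read from their range (0.722 to 13.97). How background was corrected and arrays were normalized is not given in the sources used here. Of 41345 probe sets, 23521 had 1 symbol, 1814 several and 16010 none; 23328 of the first were matched by Entrez ID to a RefSeq table of GRCm38.p6. For a gene with several probe sets, that of highest mean signal was taken. Genes above an array's 25th percentile on at least 3 arrays were tested, 19016 of 22180, among them all 44 collagen genes.

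Group means of all 18 arrays were fitted with limma 3.58.1 (R 4.3.3, statmod 1.5.0; 12 residual and 4.36 prior degrees of freedom) over 12 contrasts, with Benjamini-Hochberg adjustment over all tested genes and calls at an adjusted p under 0.05. The fit was tested on simulated data. The median SE was 0.126 for a difference between days and 0.178 for a difference in change. Same-numbered arrays were not treated as paired in the main fit. Their deviations from group means correlated at -0.146 to 0.165, over 0.1 in 4 of 27 pairs. Between the days of a genotype these correlations were 0.0153 to 0.164, so a weak pairing is not excluded. Alternatives changed the scaling, filter, probe set rule, block, variance model and samples. The collagen genes, families, pathway lists and marker lists were chosen with earlier results of these data known. Values on every array were to be given for collagen genes called with a log2 difference of at least 1 between days (Col5a2) and for their partner chains; other genes with such values were chosen after their values were seen. Of the other lists, up to 4 called genes with the largest difference may be named.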

Additional observations from a re-analysis of the deposited data

How the results depend on the processing

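None of 34 called differences between days in collagen genes reversed its direction. Of these 34, 17 kept their call under every alternative run, and 22 under every alternative other than leaving out an array; Col12a1, Col5a2 and Col9a1 kept theirs in all 3 genotypes. Leaving out 1 array at a time, collagen genes called at day 4 against day 0 numbered 7 to 12 higher (14 with all arrays) and 2 to 4 lower in wild type, 1 to 2 higher and 3 to 5 lower in knockout, and 3 higher and 4 to 8 lower in mosaic cultures; the 1 higher knockout call was left without knockout day 0 replicate 3 or day 4 replicate 1 or 2, and 3 lower calls without day 4 replicate 3. Mosaic against wild type at day 4 gave 0 to 4 lower calls, the 4 without mosaic day 4 replicate 1. With a common array median, 3 genes were lower in knockout cultures (6 as deposited). The other alternatives gave 11 to 18 higher calls in wild type. The causes were not tested. With the replicate number as a block, 13 were higher and 4 lower in wild type, 2 and 5 in knockout, and 3 and 6 in mosaic cultures. Over all genes, a common array median turned the wild type balance of calls from 3280 higher and 3106 lower to 2651 and 3285. No scaling moved the median of all genes by over 0.1 on the log2 scale. Dim signals and 3 arrays per group limit what the collagen genes can show: 36 of 44 pass a filter at the 50th percentile.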
